A study of Mus musculus with 6 samples.

Results

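The 42 DNA replication genes described here are genes of the entry into S phase, of origin licensing, of the replication fork and of nucleotide supply. They were taken by gene symbol from the read-count table, which lists 18404 genes, and all 42 are in it. The samples are bulk ear skin taken from mice on postnatal day 3. There are 3 libraries labelled control and 3 labelled ecko, in which Kdr was deleted in endothelial cells. The product of Kdr is VEGFR2, through which endothelial cells respond to VEGF-A. Both groups are labelled as tamoxifen treated, which the series' design text places from postnatal day 1 at 60 µg per day. The controls are littermates labelled only as control. The Cre driver, the control genotype and the number of animals per library are not given in the sources used here. The p-values therefore reflect only how far these libraries scatter, part of which may be technical.

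DNA replication starts from origins. The origin recognition complex, with CDC6 and CDT1, loads the ring-shaped MCM2-7 helicase on DNA in G1, and geminin blocks CDT1 once S phase has begun. CDC45 and the GINS complex then turn the loaded ring into an active helicase, and polymerases, the sliding clamp PCNA and its loader RFC copy the strands. Most of these genes are transcribed in late G1 by E2F factors, which bind words such as TTTCGCGC or TTTGGCGC in promoters. In neonatal skin, dividing cells are found in the basal epidermis, the hair follicles, the dermis and the growing vessels, so a transcript level in whole ear skin sums over all of them.

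The promoters of the MCM helicase genes are shown because the members whose groups did not overlap, described below, all belong to this helicase. RefSeq windows of build GRCm38.p6, from 250 bases before to 50 bases after the start site, were matched for 33 of the 42 genes. They were searched on both strands for the E2F words TTTCGCGC, TTTGGCGC, TTTCCCGC and TTTGCCGC, whose matches may overlap. Only the first listed window of each gene was used, and some genes have more, Mcm7 having 2. At least 1 word was found in 11 of the 33 (33.3%), against 3.9% of 11808 windows of all genes tested. The sequences run 5′ to 3′ on the gene's strand, with E2F words, or their reverse complements, in capitals. They cover 200 bases before the start of the window used for Mcm5 (chr8:75109309-75109508, plus strand), Mcm6 (chr1:128359706-128359905, minus strand) and Mcm7 (chr5:138171884-138172083, minus strand). That start is not always the outer end of the gene. By RefSeq gene positions the whole Mcm7 stretch lies within the gene (138164583 to 138172111). The last bases of the Mcm5 stretch do too, as that gene begins at 75109468.
Mcm5: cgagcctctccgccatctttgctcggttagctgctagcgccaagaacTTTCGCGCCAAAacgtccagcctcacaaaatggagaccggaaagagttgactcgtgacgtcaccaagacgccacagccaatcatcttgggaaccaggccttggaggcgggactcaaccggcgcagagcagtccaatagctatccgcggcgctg
Mcm6: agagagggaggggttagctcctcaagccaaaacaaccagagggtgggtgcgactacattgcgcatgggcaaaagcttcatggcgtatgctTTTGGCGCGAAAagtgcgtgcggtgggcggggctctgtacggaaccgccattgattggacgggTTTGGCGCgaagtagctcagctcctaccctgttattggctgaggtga
Mcm7: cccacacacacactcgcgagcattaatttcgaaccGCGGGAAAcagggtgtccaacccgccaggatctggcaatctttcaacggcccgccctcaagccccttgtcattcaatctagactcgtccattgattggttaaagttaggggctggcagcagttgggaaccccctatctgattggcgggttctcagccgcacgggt
In Mcm3 the words lie just after the start, and the 30 bases that hold both (chr1:20820264-20820293, minus strand) are given below.
Mcm3: GCGGGAAAacttgggaagtTTTGGCGCcaa
In Mcm5 and Mcm6 a word on each strand overlaps in one 12-base run of capitals, and Mcm6 has a further word nearer the start. In the window used, Mcm7 has a single word before the start and 1 more after it, at 16 to 23 bases. Mcm2 has none of these words in its window, and Mcm4 has no window here. A match is a description of letters and does not show that a factor binds there.

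The deletion was visible in the libraries before any replication gene was compared. Kdr had 89.9, 103 and 77.1 CPM (read counts relative to library size, after TMM scaling) in control libraries 1, 2 and 3 and 19.4, 24.2 and 21.6 CPM in ecko 1, 2 and 3, so that every ecko library lay far below every control (log2 fold change -2.05 ± 0.12, SE from edgeR; edgeR adjusted p 0.0002). Libraries held 16987130 to 17979182 expected counts. Keratinocyte and dermal markers were abundant (Krt5 at a mean of 3404 CPM, Col1a1 at 8728 CPM), and the endothelial genes Pecam1 and Cdh5 stood at 141 and 106 CPM. In each group 1 library (control 2, ecko 3) had almost no Y-linked reads, so the libraries of a group do not all come from the same animals. Control 3 had the lowest summed skeletal muscle level, 5598 CPM.

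None of the 42 replication genes differed between the groups past the edgeR test, whose adjusted p over all 14920 genes tested was smallest for Mcm3 (0.455). All 42 passed the low-count filter and were tested, the lowest having a mean count of 189. Over all genes the test called 0.0067% lower in ecko, which is Kdr alone, and 0% higher. DESeq2 called 0.174% lower and 0.583% higher and called none of the 42, with a smallest adjusted p of 0.349. At an unadjusted p under 0.05 edgeR had 3 of the 42 lower (Mcm3, Mcm4 and Mcm5) and 0 higher, where 4.1% of all genes were lower and 4.92% higher.

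The small differences leaned to lower values in ecko. The mean was lower in ecko for 35 of the 42, against 50.5% of all genes tested, and against 54.2% of the 10769 genes tested whose mean count was at least that of the lowest member. The median log2 fold change was -0.10 over the 42 and -0.002 over all genes. The range ran from -0.27 for Mcm3 to 0.21 for Ccne2, and for 19 of the 42 the difference was under 0.1 in size, with SEs of 0.06 to 0.19. Leaving out ecko 1 moved the median to -0.03, leaving out control 3 to -0.04, and leaving out control 2 to -0.15. Of the 42, 28 had a lower mean without ecko 1, 28 without control 3 and 37 without control 2.

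**Figure D1:**
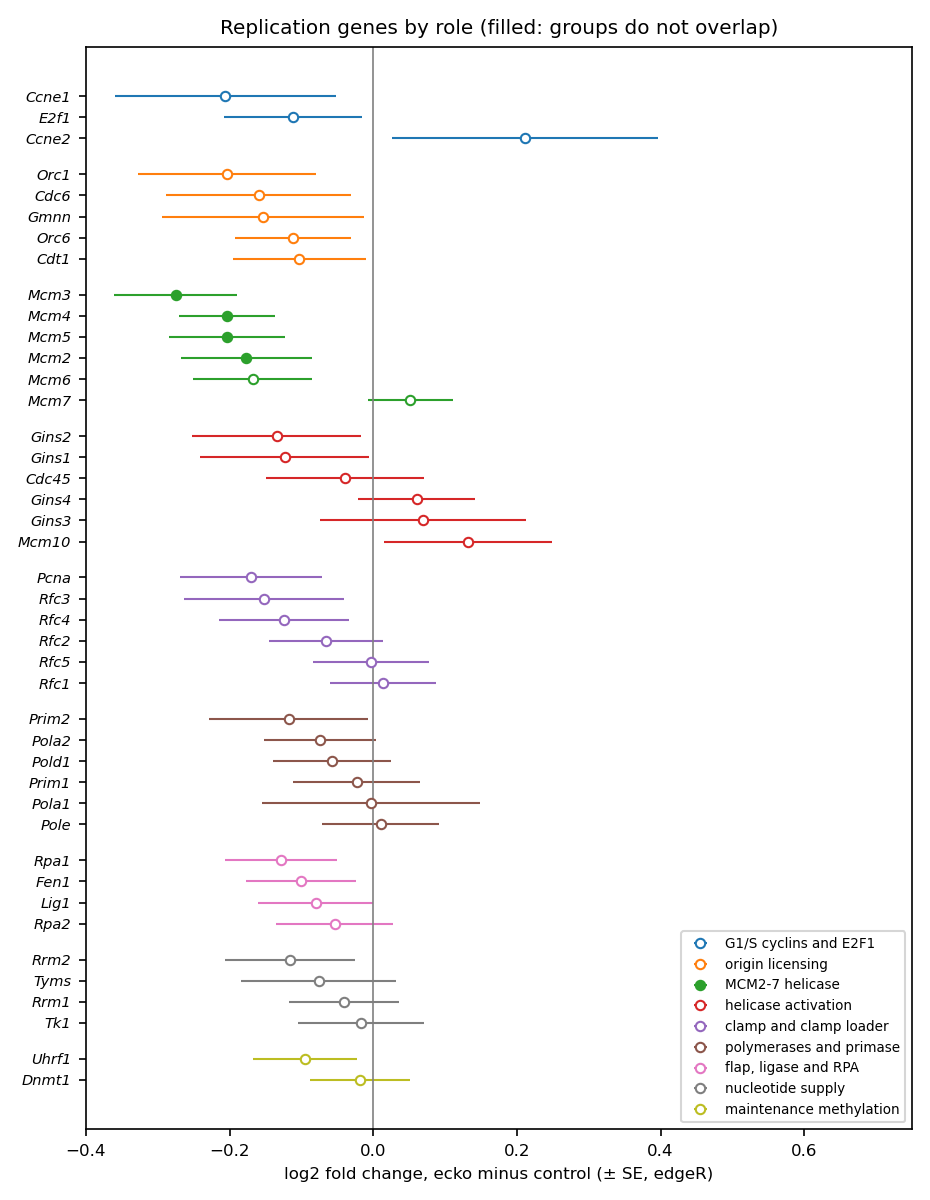
Log2 fold change, ecko minus control, of each of the 42 replication genes, ordered by role, with bars of 1 SE from edgeR and n = 3 libraries per group. Filled points are genes whose 3 ecko values all lie below the 3 control values, which are Mcm2, Mcm3, Mcm4 and Mcm5, and Mcm7 lies to the right of the other MCM2-7 subunits.

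The groups did not overlap in 4 of the 42, all lower in ecko and all subunits of the MCM2-7 helicase, and in 0 higher in ecko. Over all genes tested this held for 8.11% lower and 7.55% higher, and over the genes with counts at least as high as the lowest member for 9.54% and 6.85%. As a share of the 42 (9.5%) the count is close to the background, so it is not a result about the replication genes as a set. Mcm2 and Mcm5 cleared the controls by a narrow margin, and with DESeq2 size factors in place of TMM only Mcm3 and Mcm4 did. With 1 library left out, fewer values have to be apart and the share over all genes rises too. The count of members was 17 without control 2, where 13.71% of all genes tested were lower without overlap. It was 8 without ecko 2 (13.84% of all genes) and 8 without ecko 3 (13.25%).

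The ring-shaped MCM2-7 helicase is built from 1 copy of each of its subunits. Mcm3 (gene ID 17215) lies on chromosome 1 from 20802966 to 20820312 (build GRCm38.p6, as for all positions here). It had 116, 103 and 125 CPM in the controls and 86.2, 101 and 97.0 CPM in ecko. Every ecko library lay under every control, the closest being ecko 2 and control 2. The log2 fold change was -0.27 ± 0.09 (0.827-fold), with an unadjusted p of 0.00904.

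Mcm4 (gene ID 17217, chromosome 16, 15623897 to 15637400) had 118, 111 and 121 CPM in the controls and 94.4, 106 and 103 CPM in ecko. Its groups were also apart, with a log2 fold change of -0.20 ± 0.07, an unadjusted p of 0.0113 and an adjusted p of 0.470. Mcm5 (gene ID 17218, chromosome 8, 75109468 to 75128439) had 116, 108.74 and 127 CPM in the controls against 91.8, 105 and 108.68 CPM in ecko. The highest ecko library and the lowest control were nearly equal, and the log2 fold change was -0.20 ± 0.08 with an adjusted p of 0.530.

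Mcm2 (gene ID 17216, chromosome 6, 88883474 to 88898780), whose product also carries histones at the fork, had 101, 97.4 and 105 CPM in the controls. In ecko it had 75.8, 97.2 and 94.9 CPM. Ecko 1 stood well below the rest, and the log2 fold change was -0.18 ± 0.09 with it and -0.07 without it. Mcm6 (gene ID 17219, chromosome 1, 128331575 to 128359705), the most abundant of the subunits per kilobase of exon (39.7 CPM per kb), had 194, 177 and 217 CPM in the controls and 163, 186 and 175 CPM in ecko. Its groups overlapped, with ecko 2 above control 2, and the log2 fold change was -0.17 ± 0.08, or -0.08 without control 3.

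Mcm7 was the one subunit of the ring with no lower mean in ecko. Mcm7 (gene ID 17220, chromosome 5, 138164583 to 138172111) had 125, 124 and 130 CPM in the controls and 125, 136 and 132 CPM in ecko, a log2 fold change of 0.05 ± 0.06 with an adjusted p of 0.806. Its share of all MCM2-7 CPM does not depend on how libraries are scaled. That share was 16.2%, 17.3% and 15.8% in the controls, against 19.7%, 18.6% and 18.6% for ecko, or 16.4% ± 0.771 against 19.0% ± 0.609 (SD, n = 3). All 3 ecko libraries lay above all 3 controls, and the difference of 2.54 percentage points ran from 2.18 to 2.96 with any 1 library left out. The share was chosen after its values were seen, and no test of it was made.

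The exons of Mcm7 overlap those of opposite-strand neighbours, Ap4m1 by 321 bases and Cops6 by 64 bases in GENCODE M21, and the strand setting of the counting is not given in the sources used here. If strand was not used, reads of the overlap cannot be told apart. Ap4m1, an adaptor-complex subunit gene, had 45.2, 42.002 and 35.6 CPM in the controls and 49.0, 47.2 and 45.2 CPM in ecko. Cops6, a signalosome subunit gene, had a log2 fold change of -0.10 ± 0.07. The part of these neighbours in the Mcm7 values was not tested.

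**Figure D2:**
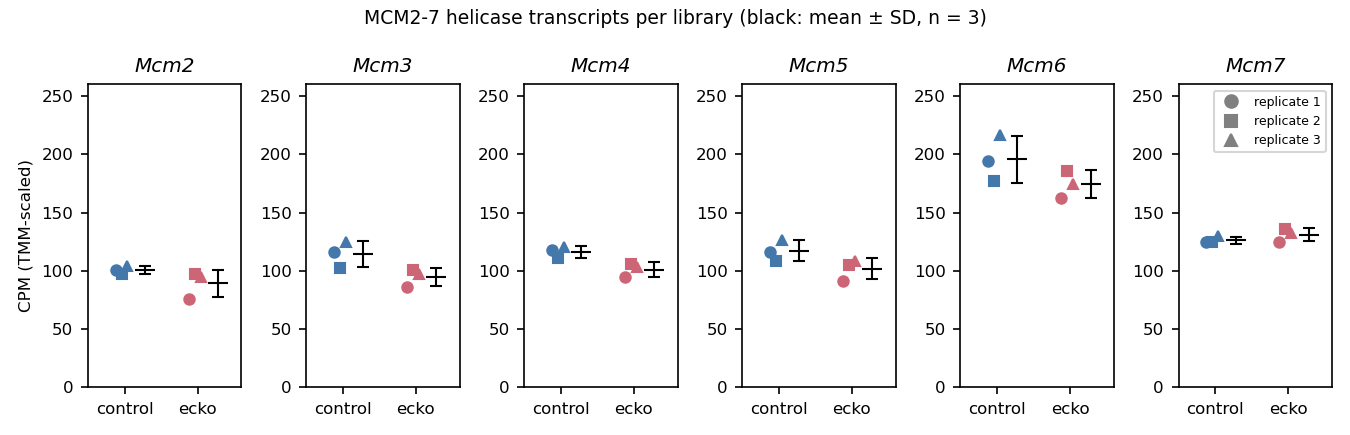
CPM of Mcm2 to Mcm7 in each library, with circles, squares and triangles for replicates 1, 2 and 3 of each group and black bars for the mean ± SD (n = 3). The ecko points of Mcm3 and Mcm4 lie below all controls, those of Mcm2 and Mcm5 do so by a narrow margin, those of Mcm6 overlap, and Mcm7 stays at 124 to 136 CPM in all 6 libraries.

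Per kilobase of exon the ring subunits were at unequal levels. Mcm2 stood at 13.7 CPM per kb, while Mcm3, Mcm4, Mcm5 and Mcm7 lay between 27.4 and 30.3 CPM per kb. Lengths are unions of all GENCODE M21 exons, which may hold exons not used in skin. The summed CPM of Mcm2 to Mcm6 was 646, 596.3 and 694 in control libraries, against 511, 595.1 and 579 for ecko. Control 2 and ecko 2 were nearly equal. The 2 groups overlapped with DESeq2 size factors, with no low-count filter and without control 3. The ratio of the group means was 0.870, and 0.837 to 0.908 with any 1 library left out. Mcm7 was left out of this sum after its values were seen, so the ratio is a description and was not tested.

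The 5 origin licensing genes all had lower means in ecko and overlapped between groups, and their median log2 fold change was -0.15. Orc1, the ATPase subunit of the origin recognition complex that appears in G1, had 12.3, 11.2 and 11.4 CPM in the controls and 9.90, 11.4 and 9.07 CPM in ecko (log2 fold change -0.20 ± 0.12, adjusted p 0.641). Ecko 2 lay within the control range and the other two ecko libraries below it. Cdt1, the loading factor that geminin blocks, had the smallest difference of the group, with 27.0, 24.1 and 28.9 CPM against 24.6, 24.7 and 25.2 CPM (-0.10 ± 0.09).

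Gmnn, the geminin gene, had 27.2, 22.1 and 33.1 CPM in the controls and 22.8, 27.1 and 24.2 CPM in ecko. The controls alone spanned the whole range of the ecko libraries, and the log2 fold change of -0.15 ± 0.14 turned to 0.008 without control 3. Cdc6, the ATPase that loads MCM2-7 with ORC, had -0.16 ± 0.13, and the ORC subunit gene Orc6 had -0.11 ± 0.08.

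The G1/S regulators went in different directions. Ccne1 and Ccne2 encode E-type cyclins, which activate CDK2 at the start of S phase. Ccne1 had 19.7, 15.1 and 21.3 CPM in the controls and 13.4, 18.3 and 16.9 CPM in ecko (log2 fold change -0.21 ± 0.15). Ccne2 had 28.7, 21.9 and 17.2 CPM in the controls and 23.3, 30.7 and 24.3 CPM in ecko (0.21 ± 0.19). Single libraries set much of both values, as Ccne2 had 0.05 without control 3 and 0.42 without control 1, and Ccne1 had -0.09 without ecko 1 and -0.34 without control 2.

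Both cyclins varied by more within the controls than between group means. Control 3 had the highest Ccne1 value of the 6 libraries and the lowest Ccne2 value. Counts of Ccne2 are partly fractional, so some of its reads were assigned by estimate, and its exons overlap Ints8 on the other strand by 609 bases. E2f1, the activator E2F whose factors switch on this group of genes, had 25.1, 22.7 and 23.6 CPM against 20.1, 22.2 and 23.7 CPM, a log2 fold change of -0.11 ± 0.10.

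Genes that activate the helicase were split, with 3 means higher and 3 lower in ecko and a median log2 fold change of 0.01. Mcm10, which helps the loaded ring to start unwinding, had 23.0, 19.3 and 17.4 CPM in the controls and 20.4, 22.0 and 23.0 CPM in ecko, the highest value of this group (0.13 ± 0.12). It had 0.05 without control 3 and 0.25 without control 1. Gins2, a GINS subunit gene, had the lowest, with 20.97, 19.9 and 21.7 CPM against 16.0, 19.6 and 21.5 CPM (-0.13 ± 0.12). Ecko 1 lay well below the controls there and ecko 2 just below, and Gins2 had -0.03 without ecko 1.

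The other GINS subunits had means on both sides of 0, with differences no larger than about their SEs. Gins1 had a log2 fold change of -0.12 ± 0.12, Gins3 0.07 ± 0.14 and Gins4 0.06 ± 0.08. Cdc45, their partner in the active helicase, had -0.04 ± 0.11. Exons of Gins2 overlap Gse1 on the other strand by 2758 bases, the longest overlap among the members.

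Pcna encodes the sliding clamp that holds polymerases on DNA, and per kilobase of exon it had the highest level of the 42 (86.0 CPM per kb). It had 217, 193 and 246 CPM in the controls and 174, 210 and 199 CPM in ecko. The group ranges overlapped, with control 2 below ecko 2 and ecko 3, and the log2 fold change was -0.17 ± 0.10 (adjusted p 0.630). It was -0.07 without control 3 and -0.26 without control 2. Among the clamp loader genes Rfc3 had -0.15 ± 0.11 and Rfc4 -0.12 ± 0.09. Rfc1, the large subunit, had 85.1, 82.1 and 94.5 CPM against 82.9, 92.8 and 88.5 CPM (0.01 ± 0.07). Rfc2 (-0.07 ± 0.08) and Rfc5 (-0.003 ± 0.08) completed the loader, whose 5 differences ran from near 0 downward.

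The polymerase and primase genes were the closest to 0 among the groups with a lower median, at -0.04. Prim2, the large primase subunit, had 26.1, 25.3 and 33.2 CPM in the controls and 25.04, 27.2 and 25.7 CPM in ecko (-0.12 ± 0.11). Control 3 alone was high, and without it Prim2 had 0.02. Pole, the leading-strand polymerase gene, had 44.0, 40.3 and 42.8 CPM against 39.5, 46.0 and 42.6 CPM (0.01 ± 0.08).

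Pola1, the catalytic subunit that extends RNA primers and the one X-linked member, had the widest spread of the group. It had 40.02, 34.0 and 52.1 CPM in the controls and 38.7, 47.3 and 39.7 CPM in ecko. The log2 fold change was -0.003 ± 0.15, and 0.18 without control 3. Pola2 (-0.07 ± 0.08), Pold1, the lagging-strand polymerase gene (-0.06 ± 0.08), and Prim1 (-0.02 ± 0.09) had lower means in ecko with overlapping groups.

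The genes of strand maturation and of single-strand DNA binding had a median log2 fold change of -0.09 over 4 genes, all with a lower mean. Rpa1, the large subunit of the single-strand binding protein RPA, had 118, 106 and 121 CPM in the controls and 95.2, 111 and 109 CPM in ecko (-0.13 ± 0.08). Rpa2 had 42.8, 40.8 and 44.5 CPM against 37.6, 43.2 and 42.7 CPM (-0.05 ± 0.08). In both genes ecko 1 was the lowest of the 6 libraries and the other two ecko libraries lay among the controls. Fen1, which trims the flaps of Okazaki fragments, and Lig1, which seals them, had -0.10 ± 0.08 and -0.08 ± 0.08.

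Nucleotide supply genes had a median of -0.06. Ribonucleotide reductase, built from the Rrm1 and Rrm2 products, makes deoxynucleotides. Rrm2, its S-phase subunit, had 101, 92.6 and 109 CPM in the controls and 81.5, 99.9 and 98.3 CPM in ecko (-0.12 ± 0.09). Rrm1 had 206, 186 and 227 CPM against 192, 207 and 202 CPM (-0.04 ± 0.08). Tyms, the thymidylate synthase gene, had -0.08 ± 0.11, and Tk1, the thymidine kinase gene of dividing cells, -0.02 ± 0.09. Tk1 had 52.4, 50.0 and 58.6 CPM in the controls and 49.0, 52.3 and 57.9 CPM in ecko, so the groups covered nearly the same range. Counts of Tyms and Tk1 are partly fractional, as for Ccne2.

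Uhrf1 and Dnmt1 copy DNA methylation onto the new strand. Uhrf1, which recognises half-methylated sites, had 156, 146 and 149 CPM in the controls and 127, 147 and 148 CPM in ecko (-0.09 ± 0.07). Dnmt1, the methyltransferase, had 209, 184 and 195 CPM against 184, 206 and 191 CPM (-0.02 ± 0.07). Both groups overlapped, and only ecko 1 was low for Uhrf1.

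The libraries also differed among themselves within each group. Ecko 1 was the lowest of the 6 libraries for 28 of the 42 genes and lay under the lowest control for 30, whereas ecko 2 did so for 8 and ecko 3 for 10. Over all genes tested, 27.7% lay under the lowest control in ecko 1, 22.4% in ecko 2 and 22.0% in ecko 3. Among the controls, control 3 had the highest value for 27 of the 42 genes and control 2 the lowest for 36. The mean deviation of the 42 genes from their own 6-library means was 0.08, -0.06 and 0.10 log2 CPM in controls 1, 2 and 3 and -0.15, 0.04 and -0.01 in ecko 1, 2 and 3. Control 2 thus stood below ecko 2 and ecko 3, and the group means, 0.04 ± 0.08 and -0.04 ± 0.10 (SD, n = 3), differed by less than that spread.

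**Figure D3:**
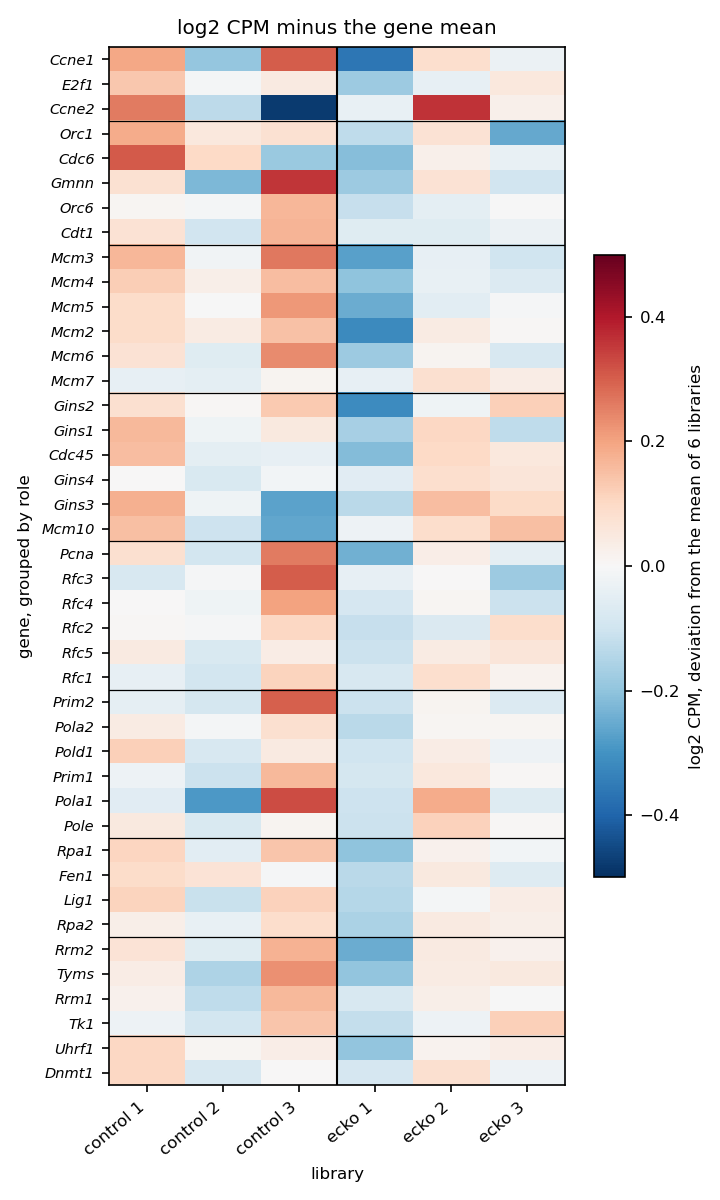
Log2 CPM of each of the 42 genes minus its mean over the 6 libraries, with genes in rows grouped by role and libraries in columns. Blue fills most of the ecko 1 column, which was lowest of the 6 for 28 genes, and red most of the control 3 column, which was highest of the 6 for 26.

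Genes of the same pathway outside the 42 were read from a longer list. Of 45 further replication genes 0 passed by edgeR (3 lower and 0 higher at an unadjusted p under 0.05) and 0 by DESeq2, 26 had a lower mean in ecko, and the median log2 fold change was -0.01. The groups did not overlap in 7 lower (15.6%) and 2 higher (4.4%), against 8.11% and 7.55% of all genes tested. Over all genes, 4.1% were lower and 4.92% higher at an unadjusted p under 0.05, and 50.5% had a lower mean. Chaf1b, a subunit of the chromatin assembly factor that works with PCNA, had 36.1, 34.0 and 38.9 CPM in the controls and 24.0, 31.5 and 31.2 CPM in ecko (-0.33 ± 0.11, adjusted p 0.482). Pold2, the second subunit of the lagging-strand polymerase, had -0.26 ± 0.10 and also lay below all controls.

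Of 18 further genes of nucleotide metabolism 0 passed by edgeR, and the median log2 fold change was -0.06. At an unadjusted p under 0.05 edgeR had 3 lower and 1 higher, where 4.1% of all genes were lower and 4.92% higher. The groups did not overlap in 2 lower (11.1%) and 2 higher (11.1%), against 8.11% and 7.55% of all genes tested. Samhd1, which breaks down deoxynucleotides, had 67.1, 67.2 and 61.9 CPM in the controls and 89.9, 86.2 and 75.05 CPM in ecko, all above the controls (0.36 ± 0.08, adjusted p 0.263). It passed with DESeq2 (adjusted p 0.0310), 1 gene of the 18 to do so, where DESeq2 called 0.583% of all genes higher and 0.174% lower. Its level was higher beside the 11 tested interferon response genes, whose summed CPM was 77.8 to 131 in the controls and 169 to 255 in ecko, and their part in it was not tested. Gart, an enzyme of purine synthesis, had 95.9, 90.3 and 92.8 CPM against 74.95, 83.6 and 77.7 CPM (-0.24 ± 0.07, adjusted p 0.370).

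Of 27 tested regulators of G1/S outside the 42, 0 passed by edgeR and 0 by DESeq2, and the median was -0.01. At an unadjusted p under 0.05 edgeR had 2 lower and 3 higher, where 4.1% of all genes were lower and 4.92% higher. The groups did not overlap in 4 lower (14.8%) and 3 higher (11.1%), against 8.11% and 7.55% of all genes tested. Tfdp2, an E2F partner, had a log2 fold change of 0.23 ± 0.08, and Cdkn1b, the CDK inhibitor p27, had 68.0, 70.5 and 72.1 CPM in the controls against 85.9, 76.7 and 77.9 CPM in ecko (0.19 ± 0.07). In both the ecko libraries lay above the controls, for Tfdp2 by 66.44 against 66.42 CPM at the closest, and their adjusted p-values were 0.495 and 0.497.

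Mitosis genes, which act later in the same cell cycle, stood on the other side of 0. Of 40 such genes 39 had higher means in ecko, all but Spc24 (-0.10 ± 0.10), and the list's median log2 fold change was 0.17, against -0.10 for the replication genes. Leaving out control 2 moved the list's median to 0.12, with 4 lower means. With all libraries the groups did not overlap in 18, all higher in ecko (45%, where 7.55% of all genes tested were so). Of the 40, 0 passed by edgeR and 0 by DESeq2. At an unadjusted p under 0.05 edgeR had 15 higher and 0 lower, where 4.92% of all genes were higher and 4.1% lower. Ndc80, a kinetochore gene, had 26.2, 24.6 and 28.8 CPM in the controls and 34.7, 33.2 and 32.6 CPM in ecko (0.34 ± 0.09, adjusted p 0.348). Knl1, the kinetochore scaffold gene, had 43.9, 31.9 and 34.2 CPM against 52.0, 46.7 and 48.7 CPM (0.42 ± 0.11, adjusted p 0.380). The list was chosen with earlier results of these libraries known, so its direction is a description.

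Read within each library, the distance between the lists does not depend on library scaling. The mean level of the mitosis genes minus that of the replication genes, each as a deviation from the 6-library mean, was -0.08, -0.13 and -0.19 log2 CPM in controls 1, 2 and 3. It was 0.29, 0.05 and 0.07 in ecko 1, 2 and 3. The groups did not overlap, with means of -0.13 ± 0.06 and 0.13 ± 0.13 (SD, n = 3). The difference of 0.27 was 0.19 without ecko 1 and up to 0.31 with another library left out. No test of it was made, because both lists were chosen with results known.

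**Figure D4:**
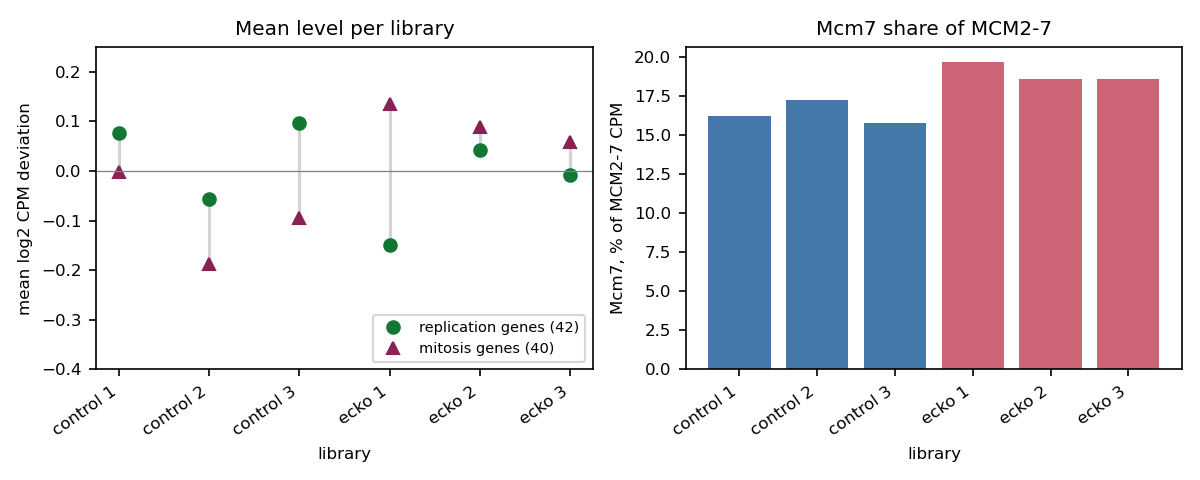
Left, the mean log2 CPM deviation of the 42 replication genes (circles) and 40 mitosis genes (triangles) in each library, joined by grey lines. Right, bars from 0 of the Mcm7 percentage of MCM2-7 CPM. The mitosis point lies below the replication point in all 3 controls and above it in all 3 ecko libraries, and the Mcm7 share is 15.8% to 17.3% in the controls and 18.6% to 19.7% in ecko.

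Exon length moved with these differences. All genes tested were put into 4 classes of nearly equal size by exon union length. The median log2 fold change was -0.04 in the shortest class (216 to 2762 bases) and 0.02 in the longest (6754 to 123179 bases). The 9 replication genes of the shortest class had a median of -0.12 and the 7 of the longest -0.02. For mitosis genes the medians were 0.10 (7 genes) and 0.22 (12 genes). In each of the 4 classes the replication median was below 0 and the mitosis median above 0. The part of length in either list was not tested.

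Promoter words differed between the lists as well. The cell cycle homology region (CHR), TTTGAA on either strand, is the site of late cell cycle genes. It was found in 15.2% of the 33 replication windows and in 76.5% of 34 mitosis windows, against 12.5% over all genes tested. E2F words were in 33.3% and 2.9% respectively. The CCAAT word was in 63.6% of the replication and 70.6% of the mitosis windows, against 38.6% of all. Within the replication genes, the 11 with an E2F word had a median log2 fold change of -0.15 and the 22 without one -0.08. A lower mean was found in 9 of the 11 and in 20 of the 22, and 4 of the 11 are MCM2-7 genes. No test of this was made. Mcm7 has E2F and CCAAT words, as Mcm3, Mcm5 and Mcm6 do, while Mcm2 has a CCAAT and a CHR word only.

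**Figure D5:**
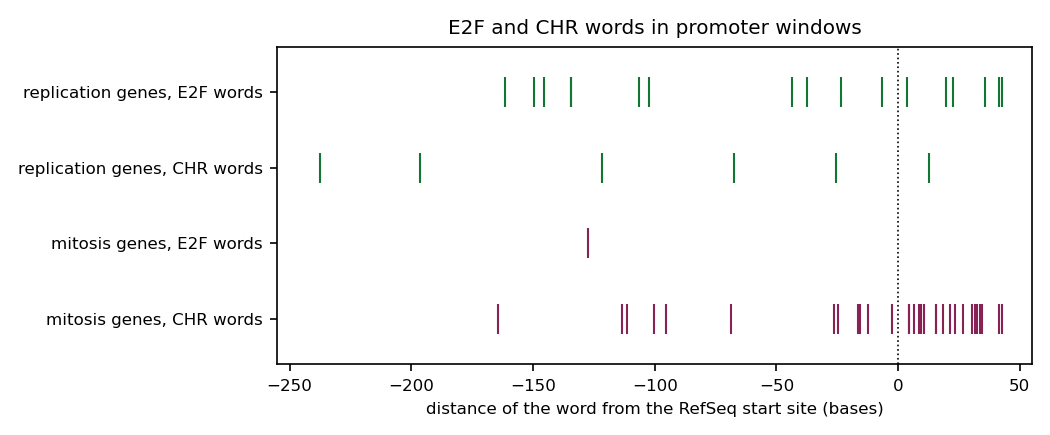
Positions of E2F and CHR words in the promoter windows of 33 replication and 34 mitosis genes, as the distance in bases from the RefSeq start site (dotted line), each tick being 1 match on either strand. E2F words occur in 11 replication windows and 1 mitosis window, and CHR words gather around the start of the mitosis genes.

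Levels of cell type markers were compared beside these values. Endothelial markers had a lower mean in ecko in 8 of 9, with summed CPM of 425 to 511 in the controls and 388 to 418 in ecko and no marker at 0. In whole tissue, fewer cells of a type and less RNA per cell cannot be told apart. Macrophage markers had a higher mean in 9 of 9, with summed CPM of 639 to 734 in the controls and 701 to 772 in ecko. Basal keratinocyte markers summed to 7192 to 7843 CPM in the controls and 7221 to 7285 CPM in ecko, and 6 of 9 had a lower mean. Suprabasal keratinocyte (8 of 9 lower), hair follicle matrix (5 of 8 lower) and fibroblast markers (3 of 8 lower) had summed levels that overlapped between groups. Control 3, the highest control for most replication genes, had the lowest skeletal muscle and erythroid sums, 5598 and 930 CPM. The part of these cell types in the replication values was not tested.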

How the data were processed

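Poly(A) RNA of ear skin was sequenced in 3 control and 3 ecko libraries. The deposited table holds expected counts per gene, unscaled. This unit was inferred from the values, since 10.1% to 10.4% in each library had decimals. Build GRCm38.p6 is named in the submitters' processing notes, as are RSEM 1.3.1, Bowtie2 2.4.5 and HISAT2 2.2.1. Annotation and strand setting are not given in the sources used here. Counts were rounded and compared by quasi-likelihood in R 4.3.3 with edgeR 4.0.16 (filterByExpr with a minimum count of 10, TMM, robust glmQLFit), two-sided, adjusted by Benjamini-Hochberg over 14920 genes at 0.05. The SE is the absolute log2 fold change over the square root of F. Log2 CPM for list levels used a prior count of 2. Library totals were 16987130 to 17979182, and reads carry no stated molecular identifiers. The fit was checked on simulated counts. An exact permutation test of 3 against 3 libraries cannot go below 0.1 and was not used.

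Alternatives planned were DESeq2 1.42.0 (size factors, Wald test), limma-voom 3.58.1, other filters, a replicate block, Y-linked or skeletal muscle levels as covariates, no robust estimation and leaving out each library. Those on the mitosis genes, the Mcm7 share and the Mcm2 to Mcm6 sum were chosen after seeing the data. Replication members and lists were chosen with earlier results of these data known. Genes named in full are Mcm2 to Mcm7, members without overlap, those with the smallest unadjusted p, the extremes of each role, and the 2 genes of each pathway list with the smallest p. Coordinates are RefSeq's and exon lengths GENCODE M21's, both on GRCm38.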

Additional observations from a re-analysis of the deposited data

How the results depend on the processing

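None of the 42 replication genes passed the threshold under any of the 15 alternatives, and the smallest adjusted p of any was 0.312. Their median log2 fold change stayed below 0 throughout, from -0.147 to -0.031 with 1 library left out. Called genes over the whole table numbered 113 with the DESeq2 Wald test, 98 with the replicate block, 50 with the skeletal muscle covariate and 2 with the Y-linked covariate, against 1, and 1 to 3 with 1 library left out. The cause was not tested. Correlations of the deviations of same-numbered libraries were 0.162, -0.237 and -0.073, within the -0.258 to 0.336 of differently numbered ones. The largest was for control 2 and ecko 3, the libraries with almost no Y-linked reads. These values cannot show whether same-numbered libraries share a litter or batch, and the labels name no pairs. The replicate block changed no call on the 42. Members lower without overlap numbered 2 with DESeq2 size factors (7.82% of all genes), 2 with no low-count filter (6.71%) and 3 to 17 with 1 library left out (10.9% to 15.68%), and members higher without overlap 0 to 2 (10.01% to 15.02%). Of the 42, 28 kept their sign under all settings. Pola1 turned to 0.0025 with the Y-linked covariate, 0.015 with limma-voom, 3.1e-06 with no low-count filter, 0.011 with the replicate block and 0.077 with the muscle covariate. Rfc5 turned to 0.00062 with no low-count filter and 0.0052 with the muscle covariate, which also turned Prim1 to 0.015 and Tk1 to 0.020. With 1 library left out, 14 changed sign. Cdc45 ran from -0.099 to 0.050, Dnmt1 from -0.065 to 0.029, Gins3 from -0.033 to 0.18, Gmnn from -0.29 to 0.0077, Pola1 from -0.14 to 0.18, Pole from -0.046 to 0.061, Prim1 from -0.082 to 0.062, Prim2 from -0.19 to 0.019, Rfc1 from -0.031 to 0.080, Rfc5 from -0.044 to 0.046, Rpa2 from -0.089 to 0.0048, Rrm1 from -0.11 to 0.039, Tk1 from -0.084 to 0.056 and Tyms from -0.17 to 0.029. Among members that kept their sign, Mcm3 ran from -0.35 to -0.20, Mcm4 from -0.24 to -0.16 and Mcm5 from -0.26 to -0.14. Of the smaller differences some moved by more, such as Cdc6 (-0.27 to -0.037) and Rfc3 (-0.23 to -0.022). Others moved by less, such as Pola2 (-0.100 to -0.030) and Gins4 (0.035 to 0.099).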
